A study of Mus musculus with 2 samples.

Results

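The Rab GTPases examined here are the 59 genes, of 27998 in the deposited gene list, whose symbol is Rab followed by a number and at most a single letter. They were chosen by name alone, so relatives with other symbols are not among them, and the symbols Rab7 and Rab9 stand for the genes also called Rab7a and Rab9a. Their UMI counts (unique molecular identifiers, tags that let each captured transcript be counted a single time) were followed across 6 classes of cells from tumours: cDC1-like, cDC2-like, mature DC-like, monocyte-like, macrophage-like and epithelial-like cells.

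Rab proteins are small GTPases that mark the membranes inside a cell and direct vesicles between them. A Rab is loaded with GTP by an exchange factor, recruits effectors such as tethers and motors while it holds GTP, and is switched off by a GTPase-activating protein, many of which carry a TBC domain. Prenyl groups anchor Rabs in membranes and GDI proteins carry the GDP-bound form through the cytosol. In phagocytes, Rab5 works on early endosomes and young phagosomes and Rab7 on late endosomes and lysosomes, while dendritic cells use Rabs of recycling and secretion to move MHC molecules. In epithelial cells, Rabs such as Rab25 and Rab27b serve recycling at the apical side and secretion.

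The cells came from tumours of C57BL/6N PyMT mice, a model in which the viral oncogene called middle T drives breast tumours, and were selected for CD11c, an integrin of many dendritic cells and macrophages. Both libraries, replicate 1 and replicate 2, are labelled wild type, with no treatment or age given. Comparisons were therefore made between classes of cells within the libraries. Whether separate animals gave the 2 libraries is not stated. The p-values rest on how differences between classes varied from library to library, with the shift common to a library taken out. That variation may be only technical.

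Replicate 1 held 17369071 UMIs and 1900 cells after filtering, and replicate 2 held 13317214 UMIs and 1216 cells. A cell entered a class when it had at least 4 of 10 fixed markers of that class and at least 1 more than of any other class, and 1660 and 1014 cells did so. The classes had 95 and 68 cDC1-like, 203 and 213 cDC2-like, 43 and 23 mature DC-like, 30 and 14 monocyte-like, 1191 and 655 macrophage-like and 98 and 41 epithelial-like cells. The selection gene Itgax was at 118 and 144 CPM (a gene's UMIs per 1000000 UMIs of the class) in macrophage-like cells and at 4.33 and 2 in epithelial-like cells, whose Krt8 was at 5679 and 4668, so the label of myeloid cells does not cover the epithelial-like class. The monocyte-like class was the smallest, 18 and 8 of its cells passed by a lead of only 1 marker, and its macrophage markers summed to 3436 and 4358 CPM against 35586 and 43259.9 in macrophage-like cells. The macrophage markers summed to 1009 and 378 CPM in cDC1-like and 1085 and 2761 in mature DC-like cells, unequal between the libraries, and their part in the results was not tested. The libraries shared 2 cell barcodes, where their sizes alone would give about 3.13.

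Rab genes together gave 42409 UMIs in the 6 classes. Rab UMIs per 10000 UMIs were 25.4 and 25.1 in epithelial-like and 24.3 and 22.2 in macrophage-like cells, 21.3 and 21 in cDC1-like, 19.7 and 19.3 in mature DC-like, 18.6 and 18.8 in monocyte-like and 16.2 and 14.6 in cDC2-like cells. The cDC2-like values were the lowest of the 6 classes in both libraries and overlapped with those of no other class. Thinned to 1900 UMIs, a cell held a mean of 4.42 and 4.32 different Rab genes in the epithelial-like class, 3.98 and 3.68 in the macrophage-like class and 2.6 in the cDC2-like class of each library. Of the 59 genes, 37 passed the filter on low counts and were tested, 20 had UMIs but did not pass, and 2 (Rab33a and Rab9b) had no UMI in any class, which allows up to 3 UMIs in the sums. Rab30 passed only through its cDC1-like sums, and Rab4a, Rab15, Rab25, Rab27b and Rab34 only through their epithelial-like sums. The filter thus favoured their calls in those classes, which were also made without it. The 6 most counted members were Rab7, Rab7b, Rab1a, Rab11a, Rab20 and Rab8b, with 49.1% of all Rab UMIs.

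**Figure D1:**
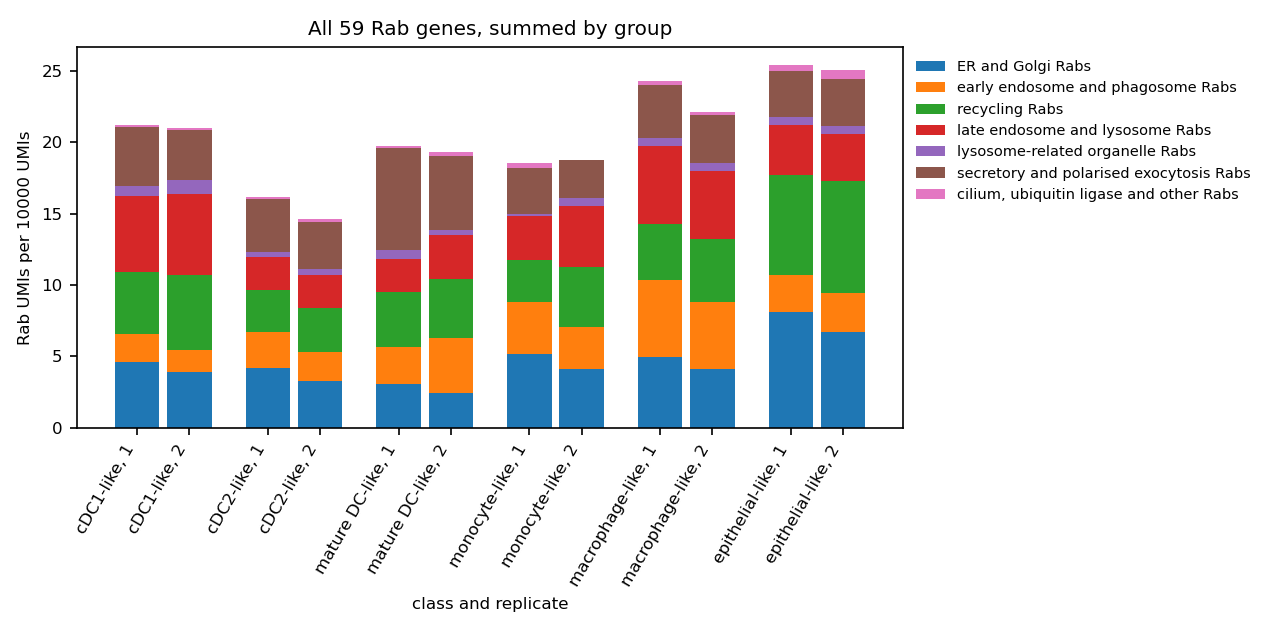
Rab UMIs per 10000 UMIs (vertical axis) in each class and library (horizontal axis), stacked by the place where the members work. Late endosome and lysosome Rabs were at 5.32 and 5.64 in cDC1-like and 5.46 and 4.76 in macrophage-like cells and at 2.29 and 2.33 in cDC2-like cells, and the secretory group was at 7.12 and 5.17 in mature DC-like cells.

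The make-up of the Rab pool differed by place of work. Early endosome and phagosome Rabs had 5.42 and 4.76 UMIs per 10000 in macrophage-like cells and 1.99 and 1.55 in cDC1-like cells. Rab20 alone gave 2020 of the 3988 and 1123 of the 2380 UMIs of this group in macrophage-like cells, and without it the values were 2.68 and 2.52 against 1.84 and 1.51. Late endosome and lysosome Rabs without Rab7b were at 2.12 and 2.38 in cDC1-like, 2.85 and 2.62 in macrophage-like and 1.91 and 2.12 in cDC2-like cells, and the secretory group without Rab8b was at 2.88 and 2.19 in mature DC-like cells. These members were singled out after their values were seen. Recycling Rabs had 6.98 and 7.88 in epithelial-like cells and 3 and 3.1 in cDC2-like cells, and ER and Golgi Rabs 8.09 and 6.7 and 3.03 and 2.43 in epithelial-like and mature DC-like cells.

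Differences among the classes were called for 25 of the 37 tested Rab genes, and for 68% of all 7888 genes tested (edgeR's quasi-likelihood test, called at an adjusted p under 0.05). The Rab share was thus near that of all genes. In the macrophage-like against cDC2-like comparison, 9 Rab genes were higher against a background of 13.6% of all genes, and 1 was lower against 12.1%. The median log2 fold change was 0.30 over the Rab genes and 0.07 over all genes. In cDC1-like against cDC2-like cells, 5 Rab genes were higher (background 5.77%) and 2 lower (background 9.27%), with medians of 0.09 and -0.03. Mature DC-like cells against the mean of cDC1-like and cDC2-like cells had 4 Rab genes higher (background 9.74%) and 2 lower (background 7.89%), with medians of -0.02 and -0.18. With DESeq2's size factors that split was 5 and 1, with DESeq2 8 and 1, and with the stricter gate 6 and 3.

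Monocyte-like against macrophage-like cells had 0 Rab genes higher (background 0.786%) and 2 lower (background 1.89%), and 5 of 37 had an unadjusted p under 0.05. Both calls of this comparison were lost without the block for the library, and DESeq2 called 1 Rab gene, lower. Epithelial-like cells against the mean of the 5 myeloid classes had 10 Rab genes higher (background 30.3%) and 9 lower (background 23.7%), and the medians were 0.20 over Rab genes and 0.15 over all genes. With DESeq2's size factors, which moved the median of all genes in this comparison to 0.43, 14 were higher and 7 lower. With equal numbers of cells per class (30 and 14), the calls of Rab1a, Rab9, Rab14 and Rab32 in macrophage-like against cDC2-like cells were lost. So were those of Rab11a, Rab20 and Rab32 in cDC1-like against cDC2-like cells, and those of Rab1b, Rab7, Rab7b and Rab8a in epithelial-like cells.

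**Figure D2:**
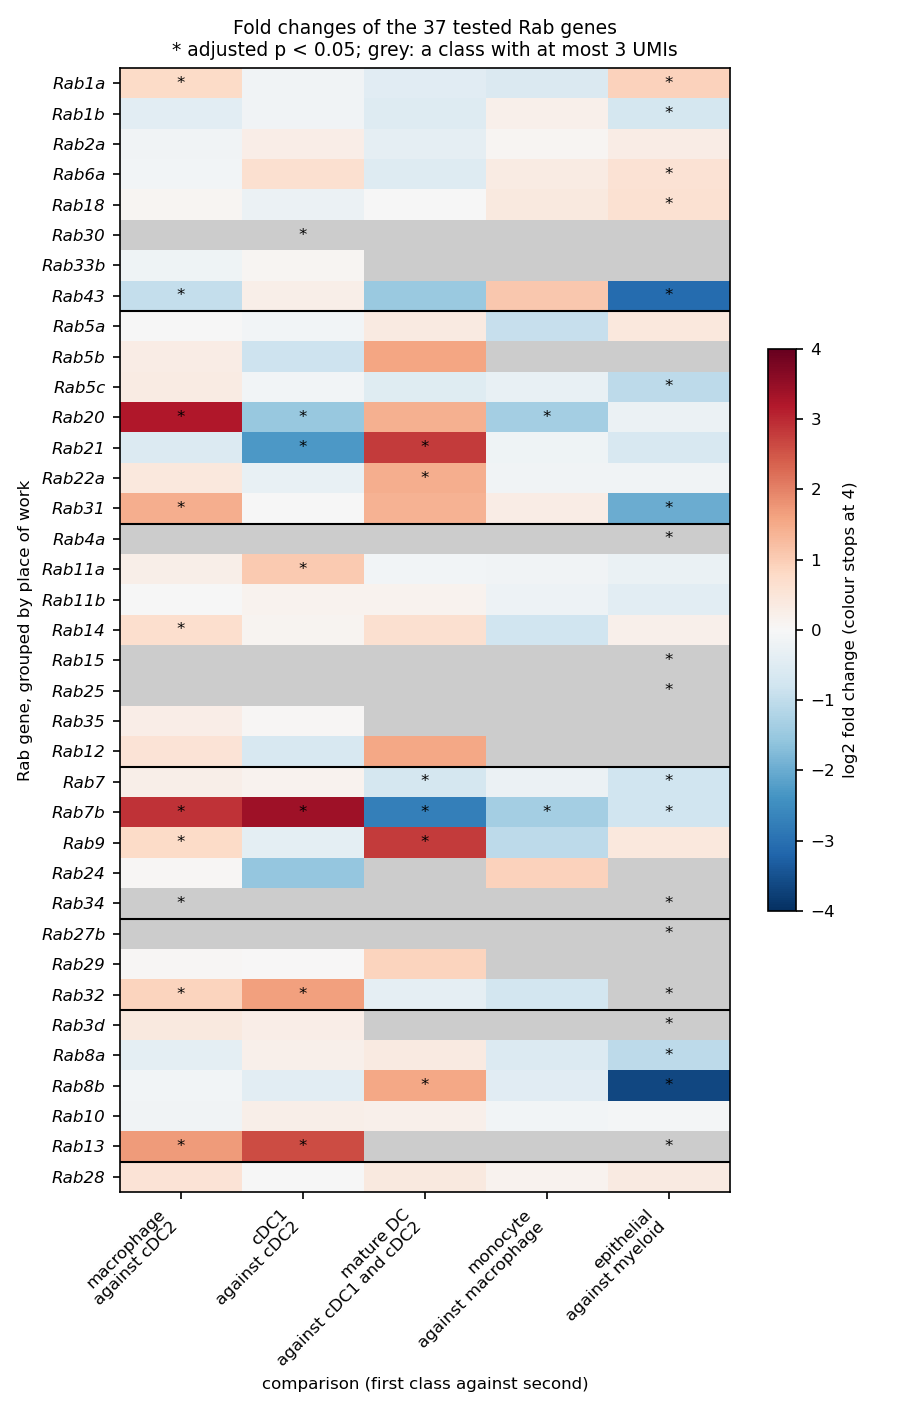
Log2 fold change (colour) of the 37 tested Rab genes (rows, by place of work) in 5 comparisons (columns), with an asterisk for an adjusted p under 0.05. Grey fields have a class with at most 3 UMIs, where the fitted value is no measure of size. Rab7b is called in all 5 comparisons, and Rab20 in 3.

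Levels of members are given as CPM scaled by edgeR's TMM factors, first for replicate 1 and then for replicate 2, and adjusted p-values are those of edgeR's quasi-likelihood test over all 7888 genes. CPM of different genes are not compared, since 3' UMI counts are not a measure per length. Among the Rabs of early endosomes and phagosomes, Rab20 was highest in macrophage-like cells. Rab20 (ENSMUSG00000031504, GRCm38 chromosome 8, 11453518 to 11478710, minus strand) is known for the maturation of phagosomes and responds to interferon-gamma in macrophages. It was at 284 and 238 CPM in macrophage-like cells, at 129 and 76.4 in monocyte-like, 52.7 and 37 in epithelial-like and 32.1 and 70.3 in mature DC-like cells. In cDC2-like cells it was at 47.7 and 13.6 and in cDC1-like cells at 15.6 and 4.36. Both macrophage-like values lay above every other value. The level was higher in macrophage-like than in cDC2-like cells (log2 fold change 3.19 ± 0.26 (SE), adjusted p = 1.06e-12) and lower in monocyte-like than in macrophage-like cells (log2 fold change -1.35 ± 0.35 (SE), adjusted p = 0.024). The latter call was lost with DESeq2, without the block and with equal numbers of cells per class, as was that of cDC1-like against cDC2-like cells (log2 fold change -1.52 ± 0.47 (SE), adjusted p = 0.0205), which rested on 15 and 77 UMIs and was lost with Leiden clusters too.

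Rab21, a Rab of early endosomes that traffics integrins, was highest in mature DC-like cells at 59.5 and 119.5 CPM. It was at 24.3 and 29.97 in cDC2-like, 18.9 and 17.8 in macrophage-like, 11.2 and 16.3 in epithelial-like and 23.5 and 0 in monocyte-like cells, and in cDC1-like cells at 3.9 and 7.26. The 3 dendritic classes did not overlap. The mature DC-like level was higher than that of both conventional classes (log2 fold change 2.79 ± 0.45 (SE), adjusted p = 6.88e-06), and cDC1-like cells were lower than cDC2-like cells (log2 fold change -2.28 ± 0.51 (SE), adjusted p = 0.00108). Rab22a, which acts between early endosomes and the recycling route, was at 41.2 and 56.3 in mature DC-like, 18.2 and 11.6 in cDC1-like and 28.4 and 9.54 in cDC2-like cells (mature DC-like against the mean of both: log2 fold change 1.47 ± 0.49 (SE), adjusted p = 0.0302), a call lost without the filter on low counts and without the block. Rab31, also called Rab22b, was higher in macrophage-like cells (36.8 and 27.5) than in cDC2-like cells (6.69 and 15.7; log2 fold change 1.47 ± 0.34 (SE), adjusted p = 9.43e-04) and lower than the myeloid mean in epithelial-like cells (3.96 and 8.87; log2 fold change -1.996 ± 0.46 (SE), adjusted p = 3.80e-04). Its level was 41.2 and 38.2 in monocyte-like and 22.9 and 42.2 in mature DC-like cells, so it was not particular to macrophage-like cells.

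Of the Rab5 proteins, which define the early endosome, Rab5c was at 127 and 151 CPM in macrophage-like, 94.1 and 140.0 in monocyte-like, 102 and 121 in cDC2-like, 102 and 105 in cDC1-like, 59.5 and 98.4 in mature DC-like and 47.5 and 56.2 in epithelial-like cells. Only its epithelial-like level was called, as lower than the myeloid mean (log2 fold change -1.04 ± 0.20 (SE), adjusted p = 2.88e-05). Rab5a was at 48.2 and 31.9 in cDC1-like, 53.6 and 34.1 in cDC2-like and 50.7 and 34.9 in macrophage-like cells, and its difference between macrophage-like and cDC2-like cells was -0.02 ± 0.24 on the log2 scale (adjusted p = 0.957). An antisense gene (Pp2d1) lies over the 3' end of Rab5a. Rab5b, at 14.8 and 15.4 in macrophage-like, 10.0 and 14.3 in cDC2-like and 32.1 and 21.1 in mature DC-like cells, was called in no comparison either. The mature DC-like value of Rab5b differed by 1.59 ± 0.62 from the conventional mean (SE; adjusted p = 0.074), so a difference was neither called nor shown to be absent.

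Rab7b was called in all 5 comparisons. It is a Rab of late endosomes and the route to the Golgi that is known for restraining Toll-like receptor signals in macrophages. Rab7b (ENSMUSG00000052688, GRCm38 chromosome 1, 131688695 to 131715439, plus strand) was at 339.7 and 363 CPM in cDC1-like and 270.1 and 226 in macrophage-like cells, at 112 and 76.4 in monocyte-like and 60.7 and 35.5 in epithelial-like cells. Its lowest levels were 41.8 and 25.9 in cDC2-like and 18.3 and 14.1 in mature DC-like cells. The 2 conventional dendritic classes were thus far apart, with each cDC1-like value above every macrophage-like value and each cDC2-like value below every monocyte-like value. The cDC1-like and macrophage-like classes were not tested against each other. Among the clusters described below, that led by Ccl8 and Folr2 had more Rab7b than the cDC1-like cluster in both libraries. The level was higher in cDC1-like than in cDC2-like cells (log2 fold change 3.41 ± 0.23 (SE), adjusted p = 2.70e-14) and in macrophage-like than in cDC2-like cells (log2 fold change 2.89 ± 0.22 (SE), adjusted p = 2.07e-13). Both calls held under all 12 alternatives. It was lower in mature DC-like cells than in the conventional mean (log2 fold change -2.74 ± 0.46 (SE), adjusted p = 1.66e-05), on 6 UMIs against 511 in cDC1-like and 88 in cDC2-like cells, and lower in monocyte-like than in macrophage-like cells (log2 fold change -1.37 ± 0.31 (SE), adjusted p = 0.00684). Epithelial-like cells were called lower than the myeloid mean (log2 fold change -0.79 ± 0.24 (SE), adjusted p = 0.00546), but with a stricter gate this value turned to 1.38 (adjusted p = 0.162) and with a lead of 2 markers to 0.86 (adjusted p = 0.48).

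Rab7, the general Rab of late endosomes and lysosomes, was at 239 and 221 CPM in macrophage-like, 200.4 and 238 in cDC1-like, 171 and 242 in monocyte-like and 182 and 212 in cDC2-like cells. The macrophage-like values lay above the cDC2-like values and within the range of the monocyte-like values, and the cDC1-like range overlapped with all 3. Its 2 lower classes were mature DC-like cells at 119 and 141 (log2 fold change -0.69 ± 0.25 (SE), adjusted p = 0.0494) and epithelial-like cells at 118 and 99 (log2 fold change -0.79 ± 0.17 (SE), adjusted p = 2.14e-04). The mature DC-like call was lost with DESeq2's size factors, with DESeq2 and without the block. An antisense gene (Gm5577) lies over the 3' end of Rab7, and the labels do not say that counting used the strand.

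Rab9, which serves the return of cargo from late endosomes to the Golgi, was highest in mature DC-like cells at 119 and 197 CPM. The other classes were at 48.1 and 48.8 (epithelial-like), 42.7 and 42.7 (macrophage-like), 11.8 and 38.2 (monocyte-like), 22.6 and 27.9 (cDC2-like) and 16.9 and 21.8 (cDC1-like), none overlapping with mature DC-like cells. Rab9 (ENSMUSG00000079316, GRCm38 chromosome X, 166457253 to 166479867, minus strand) was higher in mature DC-like cells than in the conventional mean (log2 fold change 2.79 ± 0.32 (SE), adjusted p = 5.96e-09), which held under all 12 alternatives. The macrophage-like level was higher than that of cDC2-like cells by less (log2 fold change 0.76 ± 0.25 (SE), adjusted p = 0.0201), a call lost without the block and with Leiden clusters, and with equal numbers of cells per class this value turned to -0.93 (adjusted p = 0.594). Rab34, a Rab that places lysosomes near the nucleus, had most UMIs in epithelial-like cells (29 and 51.7 CPM, 79 UMIs) and passed the filter only through them. It was at 4.22 and 5.5 in macrophage-like cells (56 UMIs) and had 2 UMIs in cDC2-like and 0 in monocyte-like cells. The pooled ratio of epithelial-like to myeloid cells was 12.8 (exact interval 9.08 to 18), and that of macrophage-like to cDC2-like cells 6.93 (exact interval 1.83 to 58.6), a call lost with DESeq2 and without the block. Pooled ratios divide the summed UMIs over both libraries, taken over unscaled UMI totals, and their intervals cover counting error only. The TMM factors behind the CPM and the fits were 1.34 and 1.39 in epithelial-like and 0.98 and 0.96 in macrophage-like cells. Unscaled ratios of epithelial-like to myeloid cells are thus larger than scaled ones would be, and inverse ratios smaller. Pooling also weights the myeloid classes by their UMIs, mostly macrophage-like, whereas the fits use their equal mean. Rab24, of autophagy, was called in no comparison, and Rab36 had 1 UMI.

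Of the Rabs of lysosome-related organelles, Rab32, which works on melanosomes and on the defence against bacteria in phagocytes, was highest in cDC1-like cells. Rab32 (ENSMUSG00000019832, GRCm38 chromosome 10, 10545002 to 10558265, minus strand) was at 57.3 and 85.6 CPM in cDC1-like, 42 and 41.7 in macrophage-like, 27.5 and 35.2 in mature DC-like, 21.8 and 23.8 in cDC2-like and 11.8 and 50.9 in monocyte-like cells. Both cDC1-like values lay above every other value. It was higher in cDC1-like than in cDC2-like cells (log2 fold change 1.64 ± 0.29 (SE), adjusted p = 5.00e-05) and in macrophage-like than in cDC2-like cells (log2 fold change 0.89 ± 0.26 (SE), adjusted p = 0.00865), the latter lost without the block. Epithelial-like cells had 3 UMIs, and myeloid cells were higher by a pooled ratio of 21.1 (exact interval 7.2 to 103).

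Its close relative Rab38, which shares its exchange factor, gave only 21 UMIs in all, 9 of them in macrophage-like and 8 in epithelial-like cells, and was not tested. Rab27a and Rab27b both dock secretory granules. Rab27a had 68 UMIs and did not pass the filter, at 7.81 and 13.1 CPM in cDC1-like, 6.69 and 6.81 in cDC2-like, 2.11 and 2.33 in macrophage-like and 3.96 and 1.48 in epithelial-like cells. Rab27b had 63 UMIs in epithelial-like cells (28.3 and 29.6 CPM) and 2 in all myeloid classes, both in macrophage-like cells, a pooled ratio of 336 (exact interval 89.2 to 2833) and an adjusted p of 5.67e-10. Rab27b passed the filter only through the epithelial-like class. Rab29, a Rab tied to the kinase Lrrk2, was called in no comparison, and Rab44 had 3 UMIs.

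Recycling Rabs were led by Rab11a, which returns cargo from the recycling compartment to the surface and, in dendritic cells, supplies MHC class I to phagosomes. Rab11a was at 282 and 343 CPM in cDC1-like cells and at 142 and 159 in cDC2-like cells. The other classes lay at 215 and 176 (mature DC-like), 141 and 191 (monocyte-like), 170.1 and 186 (macrophage-like) and 149 and 171 (epithelial-like). The cDC1-like values were above all others, and the difference from cDC2-like cells was called (log2 fold change 1.05 ± 0.19 (SE), adjusted p = 7.25e-05). Its paralog Rab11b was called in no comparison, with 69 and 110.3 CPM in cDC1-like and 70.3 and 89.9 in cDC2-like cells. Rab14, which links the Golgi with endosomes, was higher in macrophage-like cells (128 and 145) than in cDC2-like cells (81.2 and 88.6; log2 fold change 0.69 ± 0.19 (SE), adjusted p = 0.00438). Rab14 was at 128 and 148 in mature DC-like cells, on 28 and 21 UMIs, and was not tested there against macrophage-like cells. The TMM factors were 0.86 and 0.87 in mature DC-like and 0.98 and 0.96 in macrophage-like cells. Unscaled values of mature DC-like cells would thus be lower beside those of macrophage-like cells. In cDC1-like cells Rab14 was at 78.1 and 105 and differed from cDC2-like cells by 0.10 ± 0.22 on the log2 scale (adjusted p = 0.849).

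Rab25, a Rab11 relative of epithelial cells, marked the epithelial-like class. It was at 118 and 126 CPM there (264 UMIs), with 8 UMIs in macrophage-like, 1 in cDC1-like and 0 in the other 3 myeloid classes, a pooled ratio of 313 (exact interval 162 to 691) and an adjusted p of 3.19e-19. In barcodes of at most 50 UMIs, which hold free RNA, Rab25 was at 49.1 and 35.7 CPM. Rab15, which acts on endosomal recycling, had 73 UMIs in epithelial-like cells (36.3 and 26.6 CPM) and 3 in myeloid cells (pooled ratio 259 (exact interval 85.3 to 1287)). Its call was lost with DESeq2 (adjusted p = 0.0907), and an antisense gene (Fntb) lies over its 3' end. Rab4a, of fast recycling, was at 23.1 and 19.2 CPM in epithelial-like and 4.79 and 2.96 in macrophage-like cells, with 0 UMIs in mature DC-like and monocyte-like cells, a pooled ratio of 9.65 (exact interval 6.39 to 14.5). Gm20388 overlaps Rab4a on the same strand. Rab25, Rab15 and Rab4a passed the filter only through the epithelial-like class. Rab17, a further epithelial Rab, had 19 of its 21 UMIs in epithelial-like cells and did not pass the filter. Rab35 and Rab12 were called in no comparison, and Rab4b was not tested.

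Rabs of secretion and polarised exocytosis were led by Rab8b, which carries vesicles to the surface. Rab8b (ENSMUSG00000036943, GRCm38 chromosome 9, 66843664 to 66919687, minus strand) was at 499 and 345 CPM in mature DC-like cells, 167 and 166 in cDC2-like, 160.3 and 149 in macrophage-like, 118 and 132 in cDC1-like, 135 and 76.4 in monocyte-like and 11.9 and 17.7 in epithelial-like cells. The mature DC-like values exceeded all others and the epithelial-like values were below all others. Mature DC-like cells were higher than the conventional mean (log2 fold change 1.56 ± 0.20 (SE), adjusted p = 7.96e-08) and epithelial-like cells lower than the myeloid mean (log2 fold change -3.65 ± 0.26 (SE), adjusted p = 3.75e-15), and both calls held under all 12 alternatives. Its paralog Rab8a was also lower in epithelial-like cells (33 and 47.3; log2 fold change -1.03 ± 0.23 (SE), adjusted p = 2.43e-04), with 124 and 113 in mature DC-like and 111 and 87.1 in cDC1-like cells, a call lost with the stricter gate and with equal cells. Rab10, of the same branch, whose 3' end an antisense gene (Rab10os) overlaps, was called in no comparison.

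Rab13, of tight junctions and surface delivery, was at 15.2 and 22.2 CPM in epithelial-like, 18.2 and 18.9 in cDC1-like, 10.8 and 8.68 in macrophage-like and 2.51 and 3.41 in cDC2-like cells, with 0 UMIs in mature DC-like cells. Both cDC1-like (log2 fold change 2.60 ± 0.60 (SE), adjusted p = 0.00151) and macrophage-like cells (log2 fold change 1.69 ± 0.53 (SE), adjusted p = 0.0158) were higher than cDC2-like cells, which had 8 UMIs. The pooled ratio of epithelial-like to myeloid cells was 2.63 (exact interval 1.79 to 3.77). The cDC1-like values lay within the range of the epithelial-like values, so Rab13 was not particular to epithelial-like cells. Rab3d, of regulated exocytosis, was at 42.9 and 34 CPM in epithelial-like and 14.6 and 15.4 in macrophage-like cells, a pooled ratio to all myeloid cells of 4.04 (exact interval 3.13 to 5.19). Rab26, Rab3a, Rab37, Rab3b and Rab3c had 1 to 17 UMIs each in the 6 classes and were not tested.

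Among ER and Golgi Rabs, Rab1a, which serves transport from the ER to the Golgi, was higher in 2 classes. It was at 253 and 247 CPM in epithelial-like and 231 and 197 in macrophage-like cells, 171 and 102 in monocyte-like, 126 and 123 in cDC2-like, 117 and 110.3 in cDC1-like and 96.2 and 77.3 in mature DC-like cells. Macrophage-like cells were higher than cDC2-like cells (log2 fold change 0.77 ± 0.18 (SE), adjusted p = 0.00105) and epithelial-like cells higher than the myeloid mean (log2 fold change 0.93 ± 0.15 (SE), adjusted p = 2.26e-06). Rab43, which has been tied to cross-presentation in mouse cDC1, was at 46.9 and 34.8 CPM in cDC1-like and 36 and 32.7 in cDC2-like cells, which overlapped. Rab43 was lower in macrophage-like cells (21 and 14.8; log2 fold change -0.95 ± 0.26 (SE), adjusted p = 0.00425) and in epithelial-like cells (2.64 and 4.43, 7 UMIs; log2 fold change -3.08 ± 0.48 (SE), adjusted p = 8.71e-07). It had 47.1 and 25.5 in monocyte-like and 18.3 and 7.03 in mature DC-like cells.

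Rab30, a Golgi Rab, gave 32 UMIs in all. It had 23 UMIs in cDC1-like cells (15.6 and 16 CPM), 2 in cDC2-like, 2 in mature DC-like, 4 in macrophage-like, 1 in epithelial-like and 0 in monocyte-like cells. The pooled ratio of cDC1-like to cDC2-like cells was 22.2 (exact interval 5.49 to 194), with an adjusted p of 0.00341. Rab30 passed the filter only through its cDC1-like sums, so it could be tested only because it was high there. Rab18 and Rab6a were higher and Rab1b was lower in epithelial-like cells than in the myeloid mean, with log2 fold changes of 0.62 ± 0.20, 0.58 ± 0.20 and -0.70 ± 0.24 (SE). The Rab18 difference rested on replicate 1: its level was 119 and 66.5 CPM in epithelial-like and 61.8 and 65 in macrophage-like cells, and the log2 fold change was 0.95 in replicate 1 and 0.03 in replicate 2. The Rab6a call was lost with the stricter gate and without the filter, and the Rab1b call with DESeq2's size factors, with DESeq2 and with equal cells. Rab2a and Rab33b were called in no comparison, and Rab2b, Rab6b, Rab19, Rab39, Rab42 and Rab39b had 3 to 102 UMIs and were not tested. Of the remaining Rabs, Rab28, of the cilium, was at 22.1 and 22 CPM in macrophage-like and 21.1 and 29.6 in epithelial-like cells and was called in no comparison. Rab40c, Rab23 and Rab40b had 7 to 80 UMIs.

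**Figure D3:**
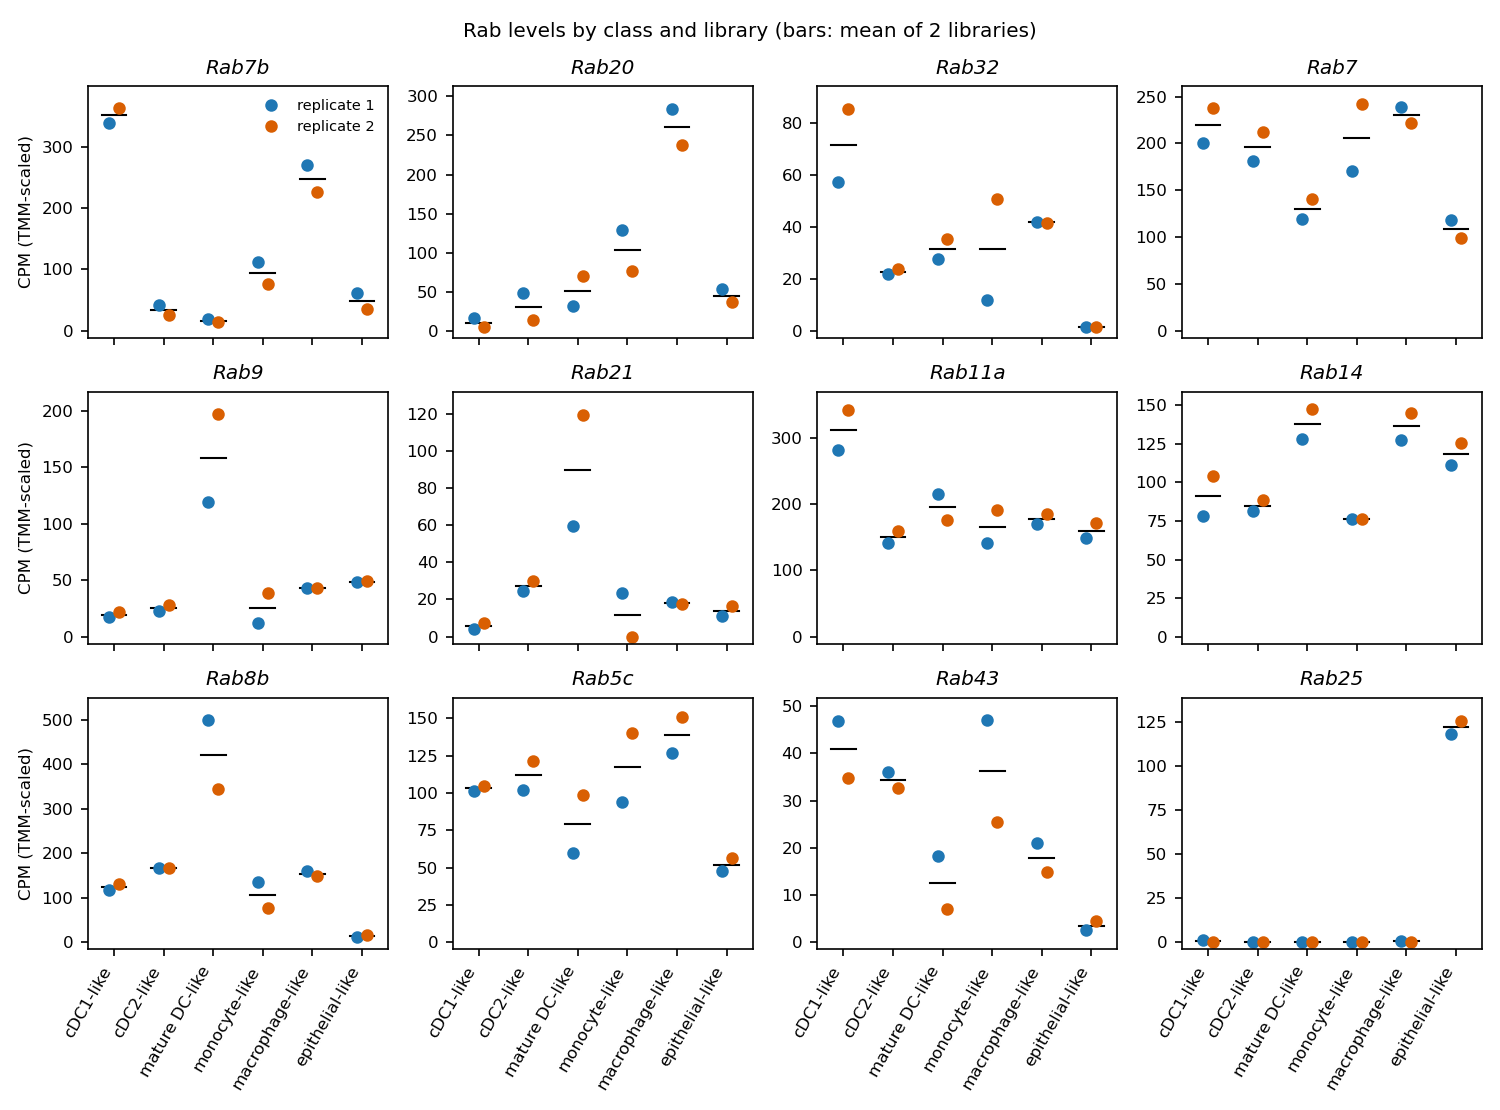
TMM-scaled CPM (vertical axis, starting near 0 in each panel) of 12 Rab genes in the 6 classes (horizontal axis), with a point per library and a bar for the mean of the 2 libraries. Rab7b and Rab11a are highest in cDC1-like cells, Rab20 in macrophage-like cells, Rab9, Rab21 and Rab8b in mature DC-like cells and Rab25 in epithelial-like cells.

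Promoter sequence is shown for Rab20, Rab21, Rab32 and Rab25, which were each called in a comparison, and not for Rab7b, Rab8b or Rab9. All shown but Rab25 held a motif searched for here. RefSeq's promoter table for GRCm38.p6 held 48 of the 59 genes, with 60 promoters of 300 bases. Each was searched on both strands for 3 motifs: CACGTG, the E-box bound by TFEB-family and other factors, GAGGAAGT, an ETS motif of the PU.1 type, and TGANTCA, the AP-1 motif. The E-box was in 6 of the 60 Rab promoters and 7.15% of all 32851 promoters, the ETS motif in 2 and 3.2%, and the AP-1 motif in 3 and 7.81%. Capitals mark the E-box in Rab20 and Rab21 and the ETS motif in Rab32, and Rab25 held none of the 3. The Rab20 and Rab32 motifs lie 46 and 43 bases before the RefSeq start but inside the longer gene models of GENCODE M21, so 30 bases around each are given. Of Rab21 and Rab25, the 120 bases before the GENCODE gene are given, all 5' to 3':
Rab20, chr8:11478669-11478698, minus strand: cggccgggcaccCACGTGgtcgcagggctg
Rab32, chr10:10558232-10558261, minus strand: tagccagggaaGAGGAAGTgccgggaccag
Rab21, chr10:115315595-115315714, minus strand: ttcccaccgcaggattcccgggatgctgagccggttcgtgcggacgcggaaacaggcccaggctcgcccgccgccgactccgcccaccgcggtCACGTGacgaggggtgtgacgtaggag
Rab25, chr3:88548301-88548420, minus strand: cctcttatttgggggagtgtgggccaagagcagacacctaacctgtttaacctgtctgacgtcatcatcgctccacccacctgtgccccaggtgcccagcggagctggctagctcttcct
A match is a description of letters and not of binding. The members with an E-box were Rab5a, Rab20, Rab21, Rab23, Rab24 and Rab27a, of which Rab20 was highest in macrophage-like and Rab21 in mature DC-like cells. Rab5a and Rab24 were called in no comparison, and Rab23 and Rab27a were not tested. A link of motif and level was not tested.

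The sums can come from few or many cells. With each cell thinned to 1900 UMIs, 44.2% (34 to 54.8) and 41.2% (29.4 to 53.8) of cDC1-like cells had a Rab7b UMI, with exact 95% intervals in parentheses, against 5.91% (3.09 to 10.1) and 4.7% (2.27 to 8.46) of cDC2-like and 0% (0 to 8.22) and 4.35% (0.11 to 21.9) of mature DC-like cells. Without thinning these shares were 86.3% and 95.6%, 15.3% and 12.2% and 6.98% and 4.35%. Rab20 UMIs were in 37.6% (34.9 to 40.4) and 35.7% (32.1 to 39.5) of macrophage-like and 3.16% (0.656 to 8.95) and 0% (0 to 5.28) of cDC1-like cells, and Rab8b UMIs in 53.5% (37.7 to 68.8) and 39.1% (19.7 to 61.5) of mature DC-like and 3.06% (0.636 to 8.69) and 2.44% (0.062 to 12.9) of epithelial-like cells. Rab25 UMIs were in 26.5% (18.1 to 36.4) and 34.1% (20.1 to 50.6) of epithelial-like cells, and in 0.252% and 0.153% of macrophage-like cells, a class not known to express it. Free RNA was at 99.2 and 117 CPM for Rab7b and 146 and 146 for Rab20. T and NK-like cells, 22 and 36 in number, had 1 and 0 Rab7b UMIs.

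**Figure D4:**
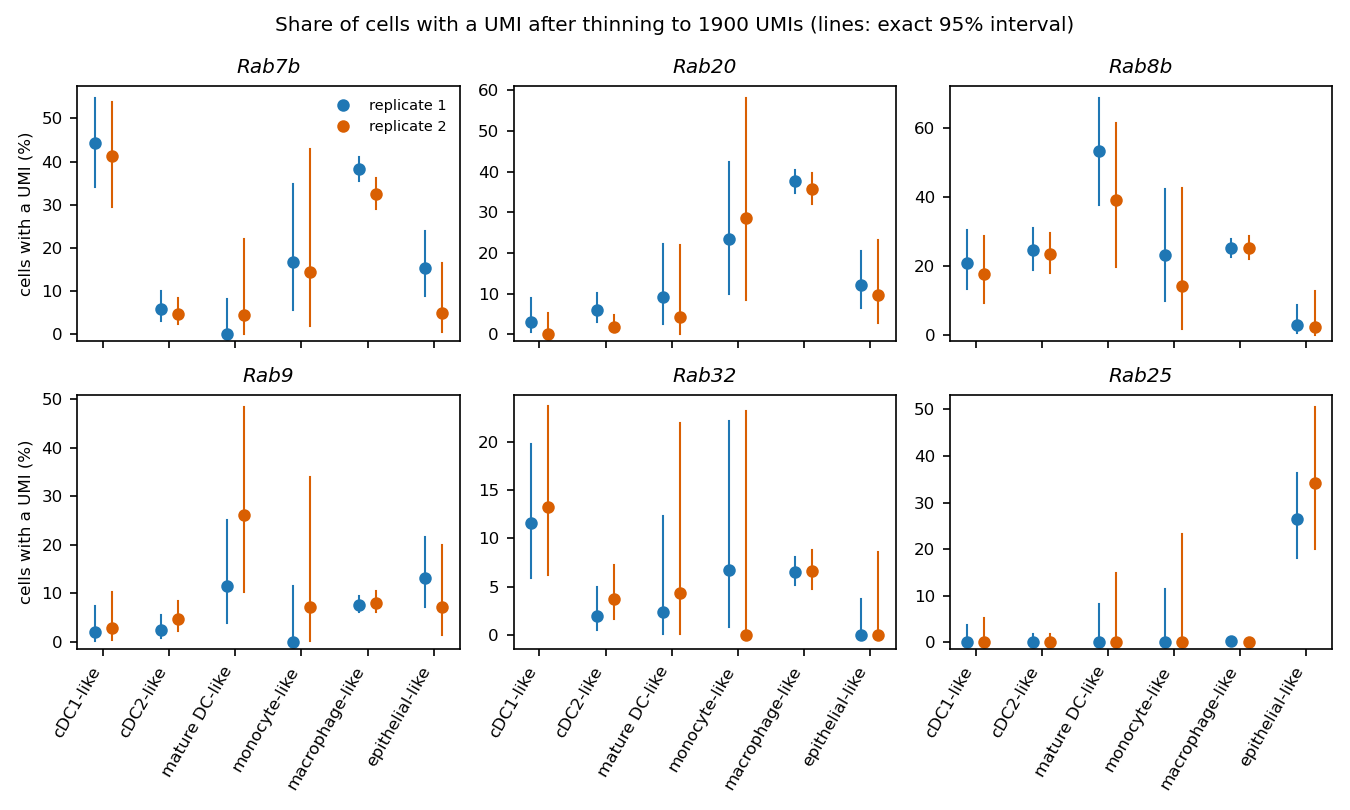
Share of cells with a UMI of 6 Rab genes (vertical axis, percent) by class (horizontal axis) after each cell was thinned to 1900 UMIs, with a point per library and a line for its exact 95% interval. Rab7b stands at 44.2% and 41.2% in cDC1-like cells and 5.91% and 4.7% in cDC2-like cells, and the intervals of the small mature DC-like and monocyte-like classes are wide.

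Levels also varied between myeloid clusters, which are described with no test. The clusters were made from the 2000 most variable genes, after the Rab genes and their listed regulators and effectors were left out. CPM here are not scaled further, and clusters are called by their leading genes. The clusters led by Acp5 and Mmp12, by Ccl8 and Folr2 and by Ccl12 and Gdf15 had Rab7b at 287 and 239, 326 and 400.4 and 305 and 269 CPM and Rab20 at 306 and 276, 316 and 236 and 378 and 279. The Ccl8 cluster held 256 cells in replicate 1 but only 29 in replicate 2, where Rab7b had 61 UMIs. The cluster led by Retnla, Ear2 and Fn1 had less of both in both libraries, with Rab7b at 113 and 105 and Rab20 at 137 and 85. The cluster led by Cxcl9 and Ly6c2, classed with the Retnla cluster as monocyte-like, had Rab7b at 291 and 226 and Rab20 at 208 and 168, so its Rab7b was near the level of the Acp5 cluster. That led by Il10 and Cxcl1, with 127 and only 21 cells, had Rab7b at 307 and 241 and Rab20 at 392 and 312. That led by Gpnmb, Spp1 and Arg1 had Rab7b at 168 and 104 and Rab32 at 70.8 and 65.6. The cluster led by Wdfy4 and Naaa, named cDC1-like, had Rab7b at 308 and 314 and Rab32 at 48.9 and 79.5, and that led by Cd209a, named cDC2-like, had Rab7b at 31.6 and 20.6. Rab8b was at 188 and 204 in the Retnla cluster and 141 and 121 in the Acp5 cluster. Rab1a was at 168 and 169 in the Acp5 cluster and 349 and 361 in the Ccl8 cluster. The Ccl12 and Retnla clusters had Rab1a at 257 and 203 and 187 and 163. Rab14 was at 97.1 and 97 in the cluster led by Fscn1 and Ccl22, named mature DC-like. It was at 133 and 162, 129 and 112 and 162 and 144 in the Acp5, Ccl8 and Ccl12 clusters. A further cluster named macrophage-like, of 12 and 9 cells, had 1 Rab14 UMI in each library.

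Regulators and effectors of Rabs were read from 6 lists with 132 genes in the files, of which 84 were tested, and single values in the text on them are log2 fold changes with an adjusted p under 0.05. In macrophage-like against cDC2-like cells, where 13.6% of all genes were higher and 12.1% lower, 1 of 6 prenylation and GDI genes was higher and 1 lower, with Rabggta, a prenyl transferase subunit, at a log2 fold change of 1.30 and Gdi2 at -0.49. Of 10 DENN exchange factors 2 were higher, Sbf2 (2.13) and Dennd1a (1.18), and 2 lower, and of 13 other exchange factors 3 were higher, among them the Rab5 exchange factor Rin2 (1.84), and 2 lower, among them the Rab8 exchange factor Rab3ip (-1.83). Of 24 TBC proteins 1 was higher, Tbc1d10a (1.31), and 1 lower, Tbc1d4 (-3.18). Endosomal and lysosomal effectors had 4 higher and 1 lower of 18, with the HOPS tether subunit Vps18 at 1.80 and Osbpl1a at a pooled ratio of 5.11 (exact interval 1.67 to 25.5). Effectors of recycling and secretion had 1 higher of 13, the Rab11 effector Rab11fip5 (2.05), and 3 lower, among them Lrrk2 (-2.49). The 6 list medians ran from -0.22 to 0.35, against 0.07 over all genes.

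In cDC1-like against cDC2-like cells, with 5.77% of all genes higher and 9.27% lower, Gdi2 was the single higher gene of its list (0.55). Exchange factors had 1 higher and 4 lower of 23, with Rab3il1 at -3.21, the Rab5 exchange factor Rabgef1 at -2.01 and Dennd4a at -1.002. TBC proteins had 4 higher and 1 lower of 24, with Tbc1d8 at 3.21 and Tbc1d14 at 1.54. Tbc1d8 was at 92.4 and 110.3 CPM in cDC1-like and 10.9 and 10.9 in cDC2-like cells. Effectors had 2 higher and 3 lower of 31. Lrrk2, a kinase that phosphorylates Rabs, was higher, at 62.5 and 46.5 CPM in cDC1-like and 10.0 and 12.9 in cDC2-like cells (2.199), and is named here after its value was seen. Rilpl2 (-1.27) and the Rab5 effector Appl1 (-0.85) were lower. Rab11fip4 had 21 UMIs in cDC1-like and 3 in cDC2-like cells (pooled ratio 13.5 (exact interval 4.04 to 70.8)), and Rab11fip5 1 and 22 (pooled ratio of cDC2-like to cDC1-like cells 11.4 (exact interval 1.84 to 470.3)). The 6 list medians ran from -0.46 to 0.43, against -0.03 over all genes.

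In mature DC-like cells Tbc1d4, a GTPase-activating protein for Rabs of the Rab8, Rab10 and Rab14 type, was at 893 and 1104 CPM against 78.7 and 160.1 in cDC2-like, 49.5 and 63.9 in cDC1-like and 13.4 and 11.6 in macrophage-like cells. No library of another class overlapped with them, and the log2 fold change against the conventional mean was 3.62 ± 0.19 (SE; adjusted p = 6.29e-18). Beside 9.74% of all genes higher and 7.89% lower, TBC proteins had 5 higher, among them Rabgap1l (2.88), and 1 lower of 24. Exchange factors had 3 higher and 1 lower of 23, with Ric1, of the Rab6 exchange complex, at 3.35 and Sbf2 at 2.87, while Dennd1b had 0 UMIs against 76 in the conventional classes, at least 2.3-fold lower with a floor of 3 UMIs over the class. Effectors had 3 higher and 0 lower of 31, namely Inpp5b (3.89), Appl1 (1.76) and the kinase Lrrk1 (2.77). Gdi2 was lower (-1.25), at 325 and 302 CPM against 776 and 1089 in cDC1-like cells. The 6 list medians ran from -1.63 to 0.45, against -0.18 over all genes.

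Monocyte-like against macrophage-like cells differed in 1 of the 84 tested regulators and effectors, near the 0.786% higher and 1.89% lower of all genes. This was Rabac1, a receptor for prenylated Rabs, which was lower (-1.11, adjusted p = 0.0272). The 6 list medians ran from -1.62 to 0.01, against -0.24 over all genes. In epithelial-like cells 30.3% of all genes were higher and 23.7% lower, and counts of the lists are to be read against these shares. Gdi2 was lower (-2.09) and Rabac1 higher (0.81) than the myeloid mean in these cells. Exchange factors had 6 higher, among them Rin2 (3.25), and 8 lower of 23, among them Rab3il1 (-3.22). Dennd1c and Dennd4b had 1 and 3 UMIs in epithelial-like cells, with myeloid cells higher by pooled ratios of 20.2 (exact interval 3.58 to 800.5) and 8.32 (exact interval 2.82 to 40.6). TBC proteins had 6 higher and 4 lower of 24, and unscaled pooled ratios were 8.62 (exact interval 5.47 to 13.5) for Sgsm2 and 1.57 (exact interval 1.02 to 2.34) for Tbc1d17. TMM scaling would lower both ratios and their intervals, and that of Tbc1d17 would then include no difference. The Tbc1d17 call came from the fit against the equal mean of the myeloid classes, with no UMI in a myeloid class. Endosomal effectors had 6 higher and 4 lower of 18, with ratios of 9.89 (exact interval 6.92 to 14.1) for Osbpl1a and 6.71 (exact interval 5.01 to 8.95) for Appl2. Effectors of recycling and secretion had 7 higher and 3 lower of 13. They included the Rab27 effectors Mlph, with 84 UMIs against 1 in myeloid cells (pooled ratio 895 (exact interval 156 to 35776)), and Sytl1, with 66 against 8 (pooled ratio 87.9 (exact interval 42.1 to 212)). The 6 list medians ran from -0.41 to 1.35, against 0.15 over all genes.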

How the data were processed

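Per the submitters' processing notes, the authors' pipeline was Cell Ranger 2.2.0 on mm10, and per the labels the libraries were 10x Chromium 3' v2. The deposited matrices hold raw UMI counts for every barcode, with no filter on cells. The strand setting of counting is not given in the sources used here. Cells were barcodes with at least the 99th percentile of the 3000 largest divided by 10, with at least 200 genes and at most 10% mitochondrial UMIs, less the highest Scrublet scores (0.8% per 1000 cells). Counts were summed per class and library into 12 sums. edgeR 4.0.16 (R 4.3.3) was fitted with class and library block, TMM and filterByExpr, and p-values were Benjamini-Hochberg adjusted over 7888 genes, leaving out the class markers. The edgeR fit was also run on simulated counts that differed in a single class. That setting is simpler than these data, and no result here rests on it. Classes of 1 library share its barcodes, so the library is the pairing. DESeq2 1.42.0 and Python 3.11.15 with scanpy 1.11.5 served the alternatives and the clusters. Coordinates are from GENCODE M21. The members, lists and tests were chosen with earlier results of these data known. Members named with values were, per comparison, the up to 10 calls of largest change whose sign both libraries shared, the most counted of each group, and a set written down by name. Others are given because every member is accounted for. Median depth was 5659.5 and 7141.5 UMIs per cell.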

Additional observations from a re-analysis of the deposited data

Results flagged for a closer look

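Cells outside the 6 classes carried some Rab genes above the highest of the 6 classes in both libraries, by unscaled CPM. In fibroblast-like cells, 25 in each library, Rab34 had 23 and 24 UMIs, a mean of 96.2 CPM, where the highest of the 6 classes had 38.1 and 70.0. Rab28 had 14 and 17 UMIs there, a mean of 62.8 CPM, and Rab13 had 12 and 16, a mean of 56.3 CPM. In T and NK-like cells, Rab37 had 5 and 12 UMIs, a mean of 66.9 CPM, against at most 1.52 and 0.575 in the 6 classes. These cells entered no comparison, and no difference was tested.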

How the results depend on the processing

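The 44 calls of Rab genes over 5 comparisons were set against 12 alternatives, and 26 held in each that tested them, or 31 when equal numbers of cells per class, which left 30 and 14 cells a class, are set aside. With equal cells, 19 Rab genes were tested. Of these, 8 were called among the 6 classes (54.3% of all genes), 2 in macrophage-like against cDC2-like (8.17%), 1 in cDC1-like against cDC2-like (6.14%), 0 in monocyte-like against macrophage-like (1.32%) and 9 in epithelial-like against myeloid cells (45.7%). Monocyte-like against macrophage-like cells had 1 call with DESeq2 (1.64% of all genes called) and 7 of 39 tested with Leiden clusters, where 19% of all genes were called. The Leiden monocyte-like class held 398 and 238 cells, so it compares a largely different set of cells. Without the replicate block, which pairs the classes of a library, the counts were 7, 6, 4, 0 and 19 in the 5 comparisons in the order of the report and 22 over all classes. Values reversed for Rab3d in monocyte-like against macrophage-like cells with Leiden clusters (1.27), for Rab7b in epithelial-like cells with the stricter gate (1.38) and a lead of 2 markers (0.86), and for Rab9 in macrophage-like against cDC2-like cells with equal cells (-0.93). The cause was not tested. Mean Rab UMIs per 10000 moved beyond 1 SD to 21.3 with the stricter gate and 21.5 without cycling cells in cDC1-like, 19.3 without cycling cells in mature DC-like, and 18.1 and 18.8 in monocyte-like cells. The lead of 2 and the fit without the monocyte sums were chosen after seeing the data. The 22 members that were not tested had at most 102 UMIs, and the monocyte-like class held 30 and 14 cells.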

Other observations

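Rab27b, which had 2 UMIs in all myeloid classes, had 9 and 6 UMIs in T and NK-like cells, or 102 and 38.6 CPM, in 22 and 36 cells. In 15 neutrophil-like cells, all in replicate 2, Rab7 was at 511 CPM and Rab20 at 242 CPM, with no replicate. Fibroblast-like cells had 11 Rab7b UMIs in each library, 51.6 and 38.8 CPM. These values were not tested.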
